A study of Mus musculus with 13 samples.

Results

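The genes described here encode the 2 condensin complexes and the SMC5/6 complex, the ring-shaped relatives of cohesin. They are the 8 condensin subunit genes Smc2, Smc4, Ncaph, Ncapd2, Ncapg, Ncaph2, Ncapd3 and Ncapg2, and the 2 core subunit genes Smc5 and Smc6. The genes were taken by symbol, and all 10 were found among the 17849 Ensembl genes of the expression table. All 10 were abundant enough to test.

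RNA was measured by sequencing in sorted CD4+ CD8+ double-positive thymocytes, which are T cell precursors with both coreceptors on their surface. There were 2 libraries from wild type mice and 2 from mice labelled Rad21 KO. Rad21 encodes the kleisin subunit that closes the cohesin ring. For the RNA libraries the labels give no age, strain, allele or way of deletion, and do not say whether the 2 libraries of a genotype came from separate animals. The p-values therefore measure the spread between these libraries, which may be technical. The series also lists 3 ChIP, 2 input and 4 Hi-C libraries, which were not used here.

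Condensins are built on a heterodimer of the ATPases SMC2 and SMC4 and extrude loops of DNA to compact chromosomes. Condensin I adds the kleisin NCAPH and the HEAT-repeat subunits NCAPD2 and NCAPG, and gains access to chromosomes once the nuclear envelope breaks down in mitosis. Condensin II adds NCAPH2, NCAPD3 and NCAPG2 and is found in the nucleus throughout the cell cycle. SMC5 and SMC6 form a separate heterodimer that acts in DNA repair and replication stress. In mice, a mutation of Ncaph2 is known to impair the development of T cells.

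Total counts lay between 6500819 and 9384505 per library. The genes Lars2 and Gm15564 together held 34.5% of all counts in Rad21 KO replicate 1 and 12.6% in replicate 2, and 5.84% and 7.47% in the wild type libraries. Levels are given as CPM, the usual scaled count, computed with edgeR's TMM factors. Rad21 itself stood at 67.9 and 65.7 CPM in the Rad21 KO libraries and at 271 and 233 CPM in wild type, for a fitted log2 fold change (Rad21 KO over wild type throughout) of -1.91 (SE 0.12, edgeR QL adjusted p = 0.000862). Of 12003 genes tested, 1533 passed an adjusted p of 0.05 in edgeR's quasi-likelihood (QL) test, or 12.8%.

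The core heterodimer of condensin changed in opposite directions in the Rad21 KO libraries. Smc4 RNA fell to 0.526 of its wild type level, while Smc2 RNA rose 1.69-fold. The condensin I subunit gene Ncapd2 fell to 0.697 of wild type. The other 7 genes did not pass the threshold, so that 1 gene was higher and 2 were lower of 10. Among all tested genes 7.60% were higher and 5.17% lower. Counts this small are given as a description. The direction of most members was downward: 8 of 10 had a log2 fold change below 0, with a median of -0.31. Of all tested genes 50.5% were below 0, and their median was -0.01. Some of these directions depended on single libraries. Without Rad21 KO replicate 1, Ncaph (0.06) and Ncaph2 (0.04) were above 0. Ncapg2 was below 0 without Rad21 KO replicate 2 (-0.19) and without wild type replicate 1 (-0.04). In RNA from bulk cells, fewer cells with a transcript and less transcript per cell cannot be told apart.

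**Figure D1:**
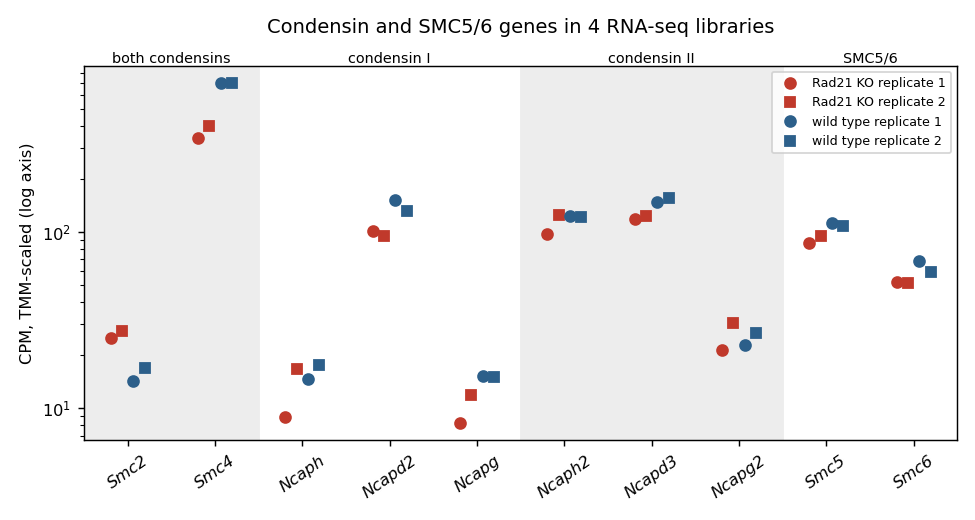
Level of each gene in each library, in TMM-scaled CPM on a log axis, with Rad21 KO libraries in red, wild type in blue, and circles and squares for replicates 1 and 2. Smc4 lies at 340 and 397 CPM in Rad21 KO against 698 and 703 in wild type, and Smc2 is the gene with both Rad21 KO libraries above both wild type libraries; levels are not corrected for transcript length, so heights are not to be compared between genes.

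Smc4 encodes the ATPase shared by both condensins. Its level was 340 CPM in Rad21 KO replicate 1 and 397 in replicate 2, against 698 and 703 in the wild type libraries. Both Rad21 KO libraries were well below both wild type libraries, and the wild type pair lay close together. The log2 fold change was -0.93 (SE 0.11, n = 2 libraries per genotype, edgeR QL adjusted p = 0.00430), and 517 of the 12003 tested genes had a lower value. The call was kept without each of the 4 libraries in turn, with log2 fold changes from -1.03 to -0.81. DESeq2, limma-voom, a block on replicate number and a fit of all genes with any count gave it too.

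In RefSeq's GRCm38.p6 gene table Smc4 overlaps the microRNA genes Mir15b and Mir16-2, whose hairpins lie within its bounds on chromosome 3. Their main products, known for restraining cell cycle and survival genes such as Bcl2, are shown because they are encoded within the gene that fell. The capitals mark the seed, bases 2 to 8, which is AGCAGCA in both. Mature miRNAs were not measured in these libraries. The sequences, on the + strand at chr3:69009775-69009796 and chr3:69009918-69009939, read 5′ to 3′:
mmu-miR-15b-5p: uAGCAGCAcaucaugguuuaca
mmu-miR-16-5p: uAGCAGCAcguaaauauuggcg

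The genes next to Smc4 did not share 1 direction. Ift80, an intraflagellar transport gene that lies just before Smc4 without overlapping it in that gene table, had 159 and 123 CPM in Rad21 KO and 231 and 252 CPM in wild type. It fell with a log2 fold change of -0.78 (SE 0.14, edgeR QL adjusted p = 0.0157), a call kept without each of the 4 libraries (-0.97 to -0.59). Trim59, which follows Smc4 on the other side, had a log2 fold change of 0.09 (SE 0.11, edgeR QL adjusted p = 0.638). Whether the authors counted by strand is not given in the sources used, and 8 of the 10 members overlap another gene in that table (all but Ncapd3 and Ncapg2), so their counts carry that uncertainty.

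Smc2 encodes the other ATPase of the heterodimer. Its level was 25.2 CPM (184 counts) in Rad21 KO replicate 1 and 27.4 CPM (197 counts) in replicate 2, against 14.2 CPM (104 counts) and 16.9 CPM (122 counts) in wild type. The groups did not overlap. The log2 fold change was 0.76 (SE 0.17, edgeR QL adjusted p = 0.0341). This call was the least stable of the 3. Leaving out Rad21 KO replicate 2 (log2 fold change 0.71) or the first wild type replicate (0.63) ended it, as did DESeq2 (0.76), a fit without the low-count filter (0.75) and a replicate block (0.76, edgeR QL adjusted p = 0.05004). The direction was upward in all 10 alternatives run. The nearest tested genes on either side, Grin3a and Nipsnap3b, had log2 fold changes of -0.10 and 0.16 and did not pass.

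The balance of the 2 core transcripts shifted in both Rad21 KO libraries, as follows from the opposite changes of Smc2 and Smc4 given above. The share below uses the same counts as those calls and is no separate support for them. Smc2 made up 6.90% (95% exact binomial interval 5.97 to 7.93) and 6.45% (5.61 to 7.38) of the summed Smc2 and Smc4 counts in Rad21 KO replicate 1 and replicate 2. In the wild type libraries it made up 2.00% (1.63 to 2.41) and 2.35% (1.95 to 2.80). The mean was 6.67% ± 0.317 in Rad21 KO and 2.17% ± 0.249 in wild type (SD, n = 2). Expressed as a ratio, there were 13.5 and 14.5 Smc4 counts per Smc2 count in Rad21 KO and 49.1 and 41.6 in wild type. These ratios depend on the lengths of both transcripts and are compared between libraries only. The intervals cover counting error only, and with 2 libraries against 2 an exact permutation test cannot go below p = 0.333, so the shift is described without a test of its own.

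**Figure D2:**
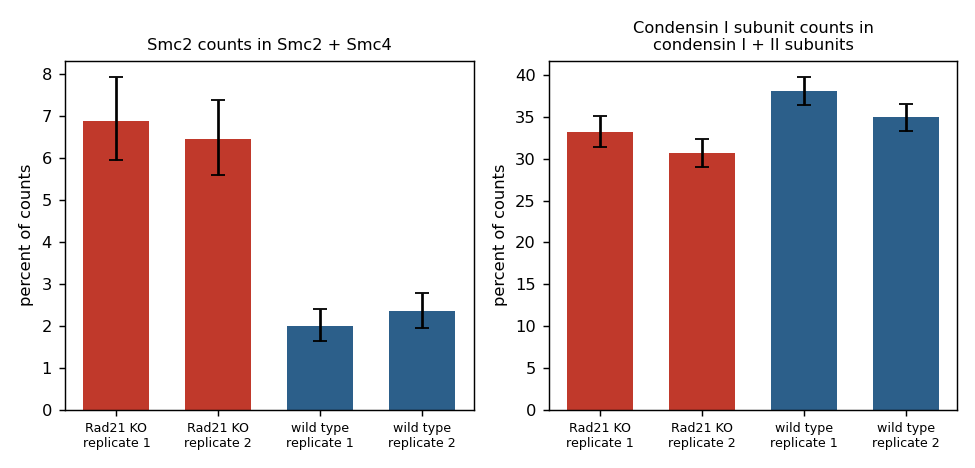
Left, Smc2 counts as a percent of Smc2 plus Smc4 counts in each library. Right, counts of the 3 condensin I subunit genes as a percent of the counts of the 6 subunit genes particular to condensin I or II. Bars are single libraries and error bars are 95% exact binomial intervals; the left bars are 6.90 and 6.45 in Rad21 KO against 2.00 and 2.35 in wild type.

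Ncapd2, which encodes a HEAT-repeat subunit of condensin I, was the second gene that fell. Its level was 101 CPM in Rad21 KO replicate 1 and 95.3 in replicate 2, against 151 and 131 in wild type, with no overlap between the groups. The log2 fold change was -0.52 (SE 0.12, edgeR QL adjusted p = 0.0320). Leaving out Rad21 KO replicate 2 (-0.46) or the first wild type replicate (-0.41) ended the call, as did a fit without the low-count filter (-0.52). DESeq2, limma-voom and a replicate block gave it too. Its neighbour Gapdh had a log2 fold change of -0.28 (edgeR QL adjusted p = 0.290), while Vamp1, the nearest tested gene on the other side, fell with -0.78 (edgeR QL adjusted p = 0.00565). Over all 10 genes, the next tested gene on each side that did not overlap the member was taken. Of these 20 neighbours 5 passed (25.0%, beside 12.8% of all genes), 3 higher and 2 lower. Tested genes that overlap a member were left out of the 20. These were Lcorl (Ncapg), Tymp (Ncaph2) and Gen1 (Smc6), and none of them passed. The neighbours were looked at after the members' values were seen.

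**Figure D3:**
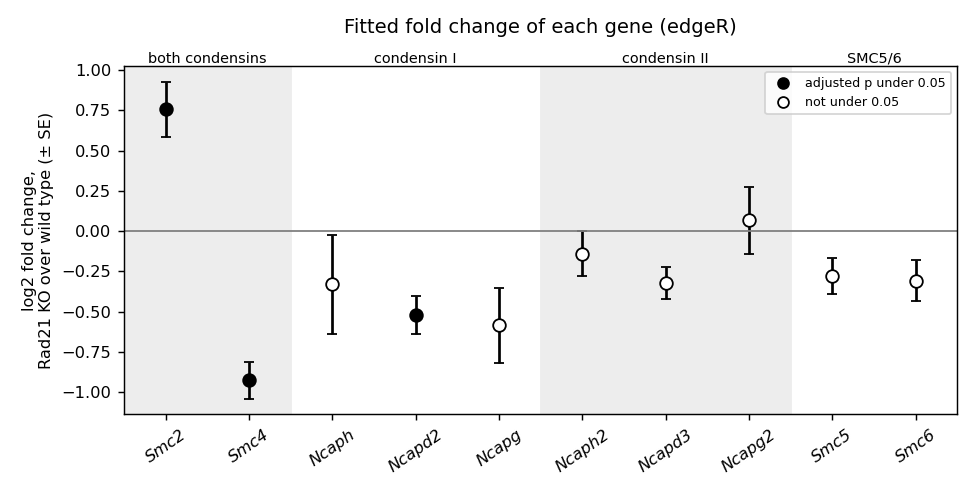
Fitted log2 fold change of Rad21 KO over wild type for each gene, with error bars of 1 standard error; filled circles passed an adjusted p of 0.05 and open circles did not. Smc2 is above 0 at 0.76 and Smc4 and Ncapd2 are below it at -0.93 and -0.52, while the 7 open circles range from -0.59 to 0.07.

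Condensin genes are known as targets of cell cycle control through E2F and DREAM complexes, so promoters were read for their elements. RefSeq's GRCm38.p6 promoter table held 9 of the 10 genes, all but Smc4, with 10 windows of 250 bases before to 50 bases after the annotated start. The motifs searched on both strands were TTTGAA, a form of the cell cycle homology region, the CCAAT box, and 3 E2F words, TTTCCCGC, TTTGGCGC and TTTCGCGC. TTTGAA was in 6 of the 10 windows and in 17.9% of all 32851 windows, CCAAT was in 3 of 10 and in 37.4% of all, and an E2F word was in 3 of 10 and in 1.84% of all. The 3 windows with an E2F word belonged to Ncapd2, Ncapg and Ncapg2, of which Ncapd2 fell and the other two did not pass the threshold. A match is a run of letters and not a measured site.

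The promoters of the called genes Smc2 and Ncapd2 are shown because the genes changed in opposite directions, and those of Ncapg and Ncapg2 because TTTGAA lies close before the start in both. Each reads 5′ to 3′ along the gene and ends at the base before the annotated start, with motif matches on either strand in capitals, so that a CCAAT box on the other strand appears as ATTGG and TTTGAA as TTCAAA. The Smc2 window is chr4:52438971-52439220 on the + strand, that of Ncapd2 chr6:125191587-125191836 on the - strand, that of Ncapg chr5:45669805-45669924 on the + strand and that of Ncapg2 chr12:116405316-116405435 on the + strand.
Smc2: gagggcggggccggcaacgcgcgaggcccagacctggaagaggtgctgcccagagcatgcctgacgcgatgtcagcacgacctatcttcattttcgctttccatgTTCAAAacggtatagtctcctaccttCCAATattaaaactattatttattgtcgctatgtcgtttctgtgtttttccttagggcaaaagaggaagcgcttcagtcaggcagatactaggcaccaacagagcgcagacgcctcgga
Ncapd2: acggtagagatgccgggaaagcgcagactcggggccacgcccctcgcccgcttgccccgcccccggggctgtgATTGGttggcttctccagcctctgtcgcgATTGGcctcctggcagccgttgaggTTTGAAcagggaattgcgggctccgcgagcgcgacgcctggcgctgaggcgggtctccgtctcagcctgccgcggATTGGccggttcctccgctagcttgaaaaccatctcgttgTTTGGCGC
Ncapg: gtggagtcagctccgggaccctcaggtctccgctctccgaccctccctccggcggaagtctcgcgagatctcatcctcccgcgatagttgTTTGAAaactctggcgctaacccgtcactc
Ncapg2: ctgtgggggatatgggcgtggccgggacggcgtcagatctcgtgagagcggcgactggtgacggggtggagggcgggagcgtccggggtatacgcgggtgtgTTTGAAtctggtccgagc

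Both called genes held TTTGAA and CCAAT in these windows. In Ncapd2 the E2F word TTTGGCGC ended at the last base before the start and 3 CCAAT boxes lay before it, whereas Smc2 held 1 CCAAT box and no E2F word. In Ncapg and Ncapg2, TTTGAA began 30 and 18 bases before the start. The E2F word of Ncapg, TTTCCCGC, lay after the start, outside the stretch shown. In Ncapg2 the same word lay 241 bases before the start and again from the start onward, both outside the stretch shown.

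The other condensin I genes had lower values in Rad21 KO that did not pass. Ncapg, which encodes a HEAT-repeat subunit, stood at 8.21 and 12.0 CPM in Rad21 KO and at 15.2 and 15.1 CPM in wild type. The groups did not overlap, and the log2 fold change was -0.59 (SE 0.24, edgeR QL adjusted p = 0.152). It moved to -0.33 with Rad21 KO replicate 1 dropped and to -0.87 with Rad21 KO replicate 2 dropped, and passed in neither case. In the gene table Ncapg overlaps the protein-coding gene Lcorl, at 35.6 and 35.7 CPM in Rad21 KO and 41.3 and 41.1 CPM in wild type. Lcorl had a log2 fold change of -0.21 and did not pass. Ncaph, the kleisin of condensin I, stood at 8.90 CPM in Rad21 KO replicate 1 and 16.8 in replicate 2, and at 14.6 and 17.7 CPM in wild type. Here the groups overlapped, since Rad21 KO replicate 2 lay between the wild type libraries. Its log2 fold change of -0.33 (SE 0.31, edgeR QL adjusted p = 0.526) was 0.06 without Rad21 KO replicate 1 and -0.85 without Rad21 KO replicate 2.

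The 3 subunit genes particular to condensin II did not pass. Ncapd3, a HEAT-repeat subunit, stood at 119 and 124 CPM in Rad21 KO and at 148 and 156 CPM in wild type, groups that did not overlap, with a log2 fold change of -0.32 (SE 0.10, edgeR QL adjusted p = 0.0813). Ncaph2, the kleisin, stood at 97.5 and 126 CPM in Rad21 KO and at 124 and 122 CPM in wild type, a log2 fold change of -0.14 (SE 0.14). It moved to 0.04 with Rad21 KO replicate 1 dropped and to -0.32 with Rad21 KO replicate 2 dropped. Of these 3 genes, Ncaph2 overlaps other genes in the gene table (Sco2 and Tymp). Ncapg2, the other HEAT-repeat subunit, stood at 21.5 and 30.6 CPM in Rad21 KO and at 23.0 and 26.7 CPM in wild type. Both wild type libraries lay between the Rad21 KO libraries, and the log2 fold change was 0.07 (SE 0.21).

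As a share of counts over the 6 subunit genes that distinguish the 2 condensins, condensin I genes took 33.2% (95% exact binomial interval 31.4 to 35.1) and 30.7% (29.0 to 32.4) in Rad21 KO replicates 1 and 2, and 38.1% (36.5 to 39.7) and 34.9% (33.3 to 36.6) in wild type. The means were 32.0% ± 1.78 and 36.5% ± 2.22 (SD, n = 2). Both Rad21 KO libraries were below both wild type libraries, but the interval of Rad21 KO replicate 1 overlapped that of wild type replicate 2. Most of the condensin I counts are those of Ncapd2, so this share is no separate support for the Ncapd2 call. The summed level of the 3 condensin I genes was 118 and 124 CPM in Rad21 KO and 181 and 164 CPM in wild type, most of it Ncapd2. That of the 3 condensin II genes was 238 and 280 CPM in Rad21 KO and 294 and 305 CPM in wild type.

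Smc5 and Smc6 both had lower values in Rad21 KO. Smc5 stood at 86.1 and 95.3 CPM in Rad21 KO and at 112 and 108 CPM in wild type, a log2 fold change of -0.28 (SE 0.11, edgeR QL adjusted p = 0.151). Smc6 stood at 52.0 and 51.6 CPM in Rad21 KO and at 68.5 and 59.7 CPM in wild type, a log2 fold change of -0.31 (SE 0.13, edgeR QL adjusted p = 0.161). In both genes every Rad21 KO library lay below every wild type library, and in neither did the difference pass. Over all members the groups did not overlap in 7 of 10. The share of all tested genes whose groups did not overlap was 58.9%.

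**Figure D4:**
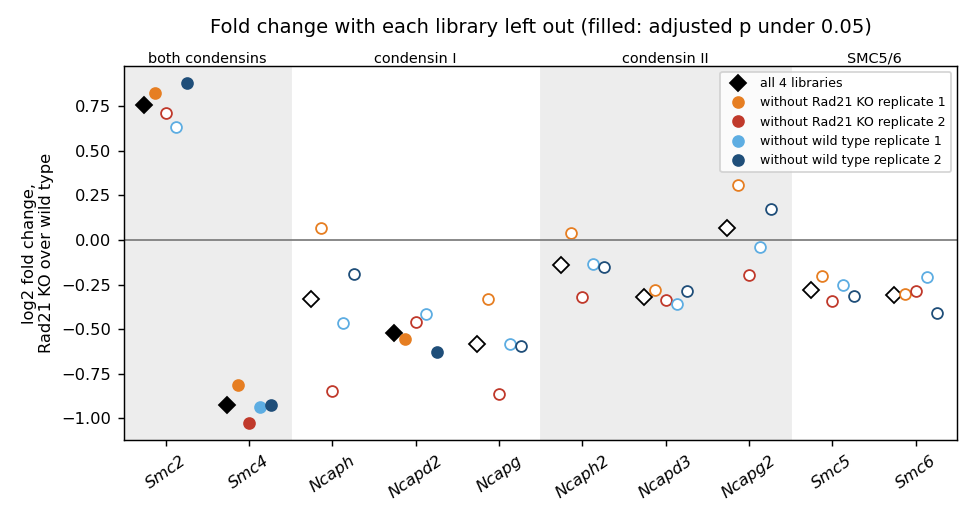
Log2 fold change of Rad21 KO over wild type for each gene with all 4 libraries (diamonds) and with each library left out (circles), filled where the adjusted p was under 0.05. Smc4 is filled in every setting; Ncaph runs from -0.85 to 0.06 and Ncapg2 from -0.19 to 0.31 depending on which Rad21 KO library is left out.

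Several members differed between the Rad21 KO libraries. Of the 10 genes, 8 were lower in replicate 1, the library with 34.5% of its counts in Lars2 and Gm15564, than in replicate 2, the called genes Smc4 and Smc2 among them, and 2 were higher (Ncapd2 and Smc6). The same count was not made over all tested genes, so 8 of 10 is a description only. The gap was widest in proportion for Ncaph, Ncapg, Ncapg2 and Ncaph2. In the genes lower in replicate 1, its level ran from 0.53 (Ncaph) to 0.96 (Ncapd3) of that in replicate 2. With those 2 genes left out before scaling, Smc4, Smc2 and Ncapd2 were again called, with log2 fold changes of -0.94, 0.75 and -0.53. Whether what raised the share of the 2 genes also affected the members was not tested.

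The partner genes of SMC5/6, which complete its complex or bring it to chromatin, were tested for 6 of 7 listed, and 0 passed in edgeR's quasi-likelihood test. In DESeq2 and limma-voom 0 passed as well, and 0 had an unadjusted p under 0.05 in any of the 3 tools. Their median was -0.02 on the log2 scale. The SUMO ligase gene Nsmce2 stood at -0.18 (SE 0.18), Nsmce1, a RING-domain subunit, at -0.12 (SE 0.15), Nsmce3 at 0.21 (SE 0.16) and the kleisin Nsmce4a at 0.28 (SE 0.13). The recruitment factors Slf1 and Slf2 stood at -0.37 (SE 0.23) and 0.09 (SE 0.11). Their summed level was 254 and 262 CPM in Rad21 KO and 252 and 240 CPM in wild type. Of 14 genes of the SUMO pathway, 0 rose and 1 fell, the SUMO protease gene Senp7 (log2 fold change -0.45, edgeR QL adjusted p = 0.0330), which no longer passed whichever of the 4 libraries was dropped (-0.46 to -0.41).

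Of 19 condensin regulators and mitotic chromosome genes, 0 rose and 1 fell, and the median was -0.07 on the log2 scale. The gene that fell was Top2b, a DNA topoisomerase that works on chromatin in interphase, at 680 and 702 CPM in Rad21 KO and 964 and 905 CPM in wild type (log2 fold change -0.44, edgeR QL adjusted p = 0.0393). Top2b no longer passed whichever of the 4 libraries was dropped (-0.48 to -0.39). Top2a, its mitotic counterpart, did not pass (-0.02). Among 8 tested genes of cohesin and other SMC proteins, 0 rose and 1 fell, Rad21. The cohesin ATPases Smc1a and Smc3 stood at -0.13 (SE 0.10) and 0.32 (SE 0.10) and did not pass.

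**Figure D5:**
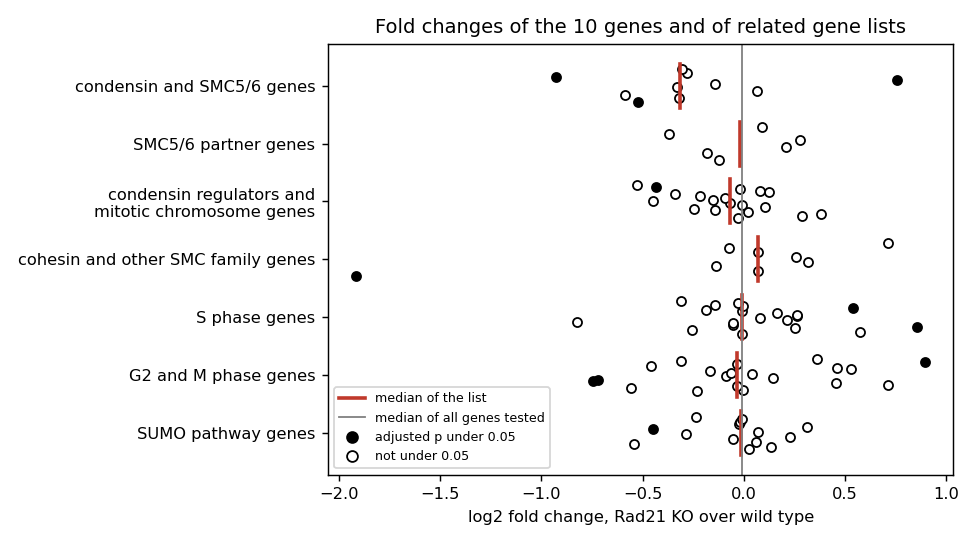
Log2 fold change of Rad21 KO over wild type for each tested gene of each list, filled where the adjusted p was under 0.05. Red bars are list medians and the grey line is the median of all tested genes at -0.01; the median of the 10 condensin and SMC5/6 genes is -0.31, and those of the S phase and G2 and M phase lists are -0.01 and -0.03.

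Lists that mark dividing cells had medians close to that of all genes. Of 20 S phase genes, 2 rose and 0 fell, and the median was -0.01 on the log2 scale. The replication clamp Pcna rose with 0.54 and the licensing factor Cdt1 with 0.86 (edgeR QL adjusted p = 0.0377 and 0.0183). Of 20 G2 and M phase genes, 1 rose and 2 fell, with a median of -0.03. The spindle midzone gene Prc1 rose with 0.90, and the kinetochore genes Cenpe and Cenpf fell with -0.74 and -0.72. Of these calls, that of Cdt1 alone held when each library was dropped in turn. With Rad21 KO replicate 2 dropped, Pcna (0.39) and Prc1 (0.73) no longer passed. With the second wild type library dropped, Pcna (0.49) no longer passed either, and with the first dropped, Prc1 (0.71) and Cenpf (-0.64) did not. Cenpe no longer passed with Rad21 KO replicate 1 (-0.58) or either wild type library (-0.70 and -0.80) dropped. The summed level of the S phase list was 901 and 1076 CPM in Rad21 KO and 899 and 902 CPM in wild type. That of the G2 and M phase list was 357 and 397 CPM in Rad21 KO and 385 and 369 CPM in wild type, so the groups overlapped.

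Markers of the sorted stage were present in every library. Of 9 genes listed as double-positive thymocyte markers, 3 fell (Rag1, Rag2 and Dntt, genes of receptor gene rearrangement, with log2 fold changes of -0.73, -0.79 and -0.63). From the same list 1 rose, the pre-TCR alpha gene Ptcra (1.07), and its rise is not read as a gain of that stage. The calls of Rag1 and Dntt ended without Rad21 KO replicate 2 (-0.61 and -0.51) and with the first wild type library out (-0.66 and -0.54), and that of Ptcra without Rad21 KO replicate 1 (0.84) and with the second wild type library out (0.99). Their summed level was 8315 to 9631 CPM in Rad21 KO and 12004 to 13380 CPM in wild type. The listed B cell, myeloid, erythroid, and NK and γδ T cell markers summed to at most 29.4 CPM per list in any library, and were lower in both Rad21 KO libraries for the B cell list (13.3 and 13.3 against 18.2 and 14.8) and the myeloid list (13.4 and 17.4 against 25.4 and 29.4). Foxn1, which defines thymic epithelium, did not exceed 0.273 CPM, and no listed marker found in the table was at 0 in all 4 libraries. The epithelial and stromal list summed to 108 and 117 CPM in Rad21 KO and to 155 and 154 CPM in wild type, nearly all of it the adhesion gene Pecam1, which fell (log2 fold change -0.58), while Epcam rose (3.08). The myeloid integrin gene Itgam fell (-1.29), but not past the threshold with the second wild type library out (-1.05). The early thymocyte list summed to 25.6 and 28.8 CPM in Rad21 KO and to 35.3 and 36.7 CPM in wild type. Of its genes, Hes1 rose (59 counts in Rad21 KO and 3 in wild type) and Cd44 fell (-2.77). The lower sum rested on Cd44, at 1.51 and 2.36 CPM in Rad21 KO and 13.1 and 13.4 CPM in wild type. Il2ra, the largest part of the list, did not pass (-0.03), with 18.9 and 20.4 CPM in Rad21 KO and 18.9 and 21.2 CPM in wild type. The part of other cells in the values of the condensin genes was not tested.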

How the data were processed

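The authors deposited a table of whole-number count equivalents for each Ensembl gene and library, treated here as estimated counts. Libraries came from total RNA with ribosomal RNA removed, per the labels' protocols, and the submitters' processing notes name mm9 as the genome build. Aligner, counting program and strand handling are not given in the sources used. Symbols were found for 17342 of 17849 genes. No value column was left unused (0 columns).

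The test across all genes was run in edgeR 4.0.16 under R 4.3.3: filterByExpr, TMM, and the quasi-likelihood test of genotype in 2 against 2 libraries, with Benjamini-Hochberg adjustment over 12003 genes and a threshold of 0.05. Replicates differed by more than counting noise (chi-square per degree of freedom 7.84 in the Rad21 KO pair and 6.36 in wild type, without Lars2 and Gm15564). Alternatives used DESeq2 1.42.0, limma 3.58.1, other scaling and filters, a replicate block and each library left out. The procedure was tested on simulated counts, where the smaller planted changes were recovered only in part and the share of false calls was above the nominal rate. Named genes are the members, Rad21, all SMC5/6 partner genes and up to 4 called genes of each list; neighbours and Top2a, Smc1a and Smc3 were added after values were seen, as were marker genes given by level. The share of Smc2 in Smc2 plus Smc4 counts was not planned in advance. The members and lists were chosen with earlier results of these data known. No transcript length was used, so levels are not compared between genes. Peak lists are on mm9, the gene table is on GRCm38.p6, and peaks were not used here.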

Additional observations from a re-analysis of the deposited data

How the results depend on the processing

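The number of condensin and SMC5/6 genes called was 3, and ranged from 1 to 3 when each library was left out; Smc4 alone was called without Rad21 KO replicate 2 and without the first wild type replicate. With no filter on low counts 1 of the genes was called, again Smc4, and 433 genes in all among 17003 tested. Leaving out each library gave 947 to 1438 calls over all genes, against 1533. With the replicate block 2 members were called, Smc4 and Ncapd2, and 1025 genes in all. In the labels, same-numbered libraries share only a number. Their deviations from the group means had a correlation of 0.01 over 9822 genes. With 2 libraries per genotype this cannot settle whether they were handled together. Of 100 single-gene values under the alternatives, 88 kept direction and side of the threshold, 8 lost the call (5 of Smc2 and 3 of Ncapd2, given above) and 4 changed sign in uncalled genes, which were Ncaph and Ncaph2 without Rad21 KO replicate 1 (0.06 and 0.04) and Ncapg2 without the second Rad21 KO replicate (-0.19) and without the first wild type one (-0.04). The condensin I share differed by -4.56 percentage points, and by -6.13 to -2.98 with each library left out. Shares per kilobase were not run, since no transcript length was used. The cause of the changed calls was not tested. The lowest members, Ncaph and Ncapg, rest on 60 to 128 counts per library.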
